A study of Mus musculus with 2 samples.

Results

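The nuclear genes of oxidative phosphorylation were followed in mouse bone marrow-derived macrophages in which the gene for osteopontin (Spp1) was or was not a target of Cre recombinase. Members were the symbols of the expression table that begin with Ndufa, Ndufb, Ndufc, Ndufs, Ndufv, Sdh, Uqcr, Cox4, Cox5, Cox6, Cox7, Cox8 or Atp5, without pseudogene names, at a mean of at least 1 FPKM over the KO and WT libraries. FPKM count sequenced fragments relative to the length of a gene and to the size of its library. Of the 40017 symbols in the table, 101 carried such a name and 90 of these reached the mean of 1 FPKM. Among the 90, 87 had a single row in the table, and the other 3 (Ndufs3, Atp5a1 and Uqcrc1) had several rows and were kept apart. The 11 symbols below the threshold are given at the end.

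The study asked how SPP1 acts on the macrophage. The KO library came from mice of genotype SPP1fl/fl-Lyz2-icre, in which a Cre recombinase driven by the myeloid gene Lyz2 acts on floxed Spp1 alleles, and the WT library came from SPP1fl/fl mice, which carry the same floxed alleles without Cre. Marrow cells of both genotypes had been kept for 5 days in medium with 20 ng/ml M-CSF, the growth factor that drives marrow progenitors to become macrophages, before total RNA was taken with TRIzol. Each genotype had 1 library, and how many animals or cultures fed it is not given in the sources used here. No difference below therefore has a replicate check, and all values describe these libraries. Spp1 itself stood at 11.3 FPKM in the KO library, against 4006 FPKM in the WT library. Lyz2, the locus that carries the Cre, stood at 13539 FPKM in the KO library, against 29499 FPKM in the WT library. All 10 macrophage markers examined were expressed in both libraries, at 30.1 FPKM or more in KO and 34.7 FPKM or more in WT. Marker sums of the other cell types stayed low. The highest were 5.22 FPKM in KO and 4.90 FPKM in WT for mast cell and megakaryocyte genes, and 2.27 FPKM in KO and 6.25 FPKM in WT for stromal genes. Summed over all symbols, the KO library held 422004 FPKM, against 425814 FPKM for the WT library. The WT library was 1.31 times as deep as the KO library, read from the steps of the lowest values, and the absolute depth was not settled.

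Oxidative phosphorylation takes place in the inner mitochondrial membrane. Complex I (NADH dehydrogenase) and complex II (succinate dehydrogenase) pass electrons to ubiquinone, complex III passes them on to cytochrome c, and complex IV reduces oxygen. Complexes I, III and IV pump protons, and complex V, the ATP synthase, uses the proton gradient to make ATP. Most subunits are encoded in the nucleus and imported, while a small set of core subunits is encoded in mitochondrial DNA. In macrophages the balance between this pathway and glycolysis is known to shift with activation state.

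The genes lie apart in the genome, on 19 chromosomes, and promoters of nuclear respiratory genes are known for sites of NRF1, of the ETS factor GABPA and of YY1. The promoters of 5 structural subunits are shown to set letters beside the values below. They belong to 3 of the 4 single-row members with the highest difference between the libraries (Atp5e, Ndufb6 and Ndufc1), to the highest member that holds the NRF1 letters (Uqcr11), and to the structural subunit with the lowest difference (Ndufa12). They were thus picked after their values were seen. Each runs 5′ to 3′ on the strand of the gene, from 250 bases before to 50 bases after the RefSeq start in GRCm38.p6. Capitals mark matches to GCGCATGCG (NRF1), CCGGAAG (ETS) or AAGATGGC (YY1) on either strand, letter strings that do not contain one another.
Atp5e, chr2:174464052-174464351, minus strand: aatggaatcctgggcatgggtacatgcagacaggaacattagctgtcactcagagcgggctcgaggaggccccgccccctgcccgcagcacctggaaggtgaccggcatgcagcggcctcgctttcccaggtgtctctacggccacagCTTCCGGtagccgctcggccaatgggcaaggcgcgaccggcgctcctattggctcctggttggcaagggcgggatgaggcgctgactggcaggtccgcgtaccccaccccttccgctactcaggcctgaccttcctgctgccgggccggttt
Ndufb6, chr4:40279372-40279671, minus strand: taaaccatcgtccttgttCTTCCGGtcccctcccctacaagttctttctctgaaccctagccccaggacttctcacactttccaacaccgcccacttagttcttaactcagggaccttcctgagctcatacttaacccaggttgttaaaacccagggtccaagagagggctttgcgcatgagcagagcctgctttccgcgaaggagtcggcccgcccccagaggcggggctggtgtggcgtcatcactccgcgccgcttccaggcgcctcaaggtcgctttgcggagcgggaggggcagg
Ndufc1, chr3:51408906-51409205, minus strand: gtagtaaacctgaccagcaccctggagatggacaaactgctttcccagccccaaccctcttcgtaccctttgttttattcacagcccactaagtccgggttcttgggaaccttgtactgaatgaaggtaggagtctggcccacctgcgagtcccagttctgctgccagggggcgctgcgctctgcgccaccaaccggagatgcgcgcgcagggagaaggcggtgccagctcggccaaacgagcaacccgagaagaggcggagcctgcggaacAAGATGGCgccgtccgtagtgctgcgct
Uqcr11, chr10:80406772-80407071, minus strand: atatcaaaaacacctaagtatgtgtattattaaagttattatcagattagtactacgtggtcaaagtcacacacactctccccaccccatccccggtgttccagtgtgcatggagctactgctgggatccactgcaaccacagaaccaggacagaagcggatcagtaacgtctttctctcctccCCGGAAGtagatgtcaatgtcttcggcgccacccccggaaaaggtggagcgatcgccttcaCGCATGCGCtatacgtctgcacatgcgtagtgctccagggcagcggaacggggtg
Ndufa12, chr10:94198785-94199084, plus strand: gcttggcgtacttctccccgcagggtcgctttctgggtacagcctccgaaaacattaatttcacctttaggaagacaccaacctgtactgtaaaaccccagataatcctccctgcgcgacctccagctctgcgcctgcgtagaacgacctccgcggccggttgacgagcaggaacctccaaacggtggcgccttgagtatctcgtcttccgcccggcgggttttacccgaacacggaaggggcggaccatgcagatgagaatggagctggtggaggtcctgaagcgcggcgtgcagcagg
The ETS letters begin 102 bases before the start of Atp5e, 232 bases before that of Ndufb6 and 66 bases before that of Uqcr11. The NRF1 letters of Uqcr11 begin 5 bases before its start, and the YY1 letters of Ndufc1 begin 22 bases after. The window of Ndufa12 holds none of these letters, which says nothing of the factors themselves.

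Most members stood somewhat higher in the KO library than in the WT library, and few differed by much. Differences are KO minus WT on the log2(FPKM + 1) scale, on which a low gene shows less of its change than a high one, and folds are ratios of FPKM unless stated otherwise. Over the 87 single-row members the median difference was 0.18, with a range of -0.60 to 0.95. Their summed level was 5209 FPKM in KO and 4652 FPKM in WT, which is 1.23% of all FPKM in KO and 1.09% in WT. Of the 87, 70 (80.5%) were higher and 17 lower in KO. Of the 10536 symbols at a mean of at least 1 FPKM, 47.4% were higher and 52.6% lower, and the median difference of all of them was -0.01. By a margin of at least 25% in FPKM + 1 (KO at least 25% above WT, or WT at least 25% above KO), 16 members were higher (7.55% of all symbols tested were) and 3 were lower (4.3% of all symbols tested were). By 1.5-fold in FPKM + 1, 6 members were higher, beside 3.24% of all symbols, and 2 were lower, beside 1.15%. No single-row member passed 2-fold on the same FPKM + 1 scale in either direction, beside 1.23% of all symbols that were higher and 0.475% that were lower by that much. The order of the members by level was nearly the same in both libraries, with a Spearman rho of 0.983 between KO and WT levels over 87 genes of the same libraries.

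Values in FPKM are shares of a library, so a change of very abundant genes moves all others. Lyz2 and Spp1 alone took up more of the WT library, and when both libraries were rescaled after leaving these genes out, 60 of 87 members (69.0%) were higher in KO, beside 34.5% of all single-row symbols. The median was then 0.13 for the members and -0.06 for all. In bulk RNA, fewer cells of a type and less RNA per cell cannot be told apart. Coding length also moved with the difference, as described below, and with the trend of the difference along mRNA length taken out the median of the members was 0.09 over 85 genes, with 56 higher.

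**Figure D1:**
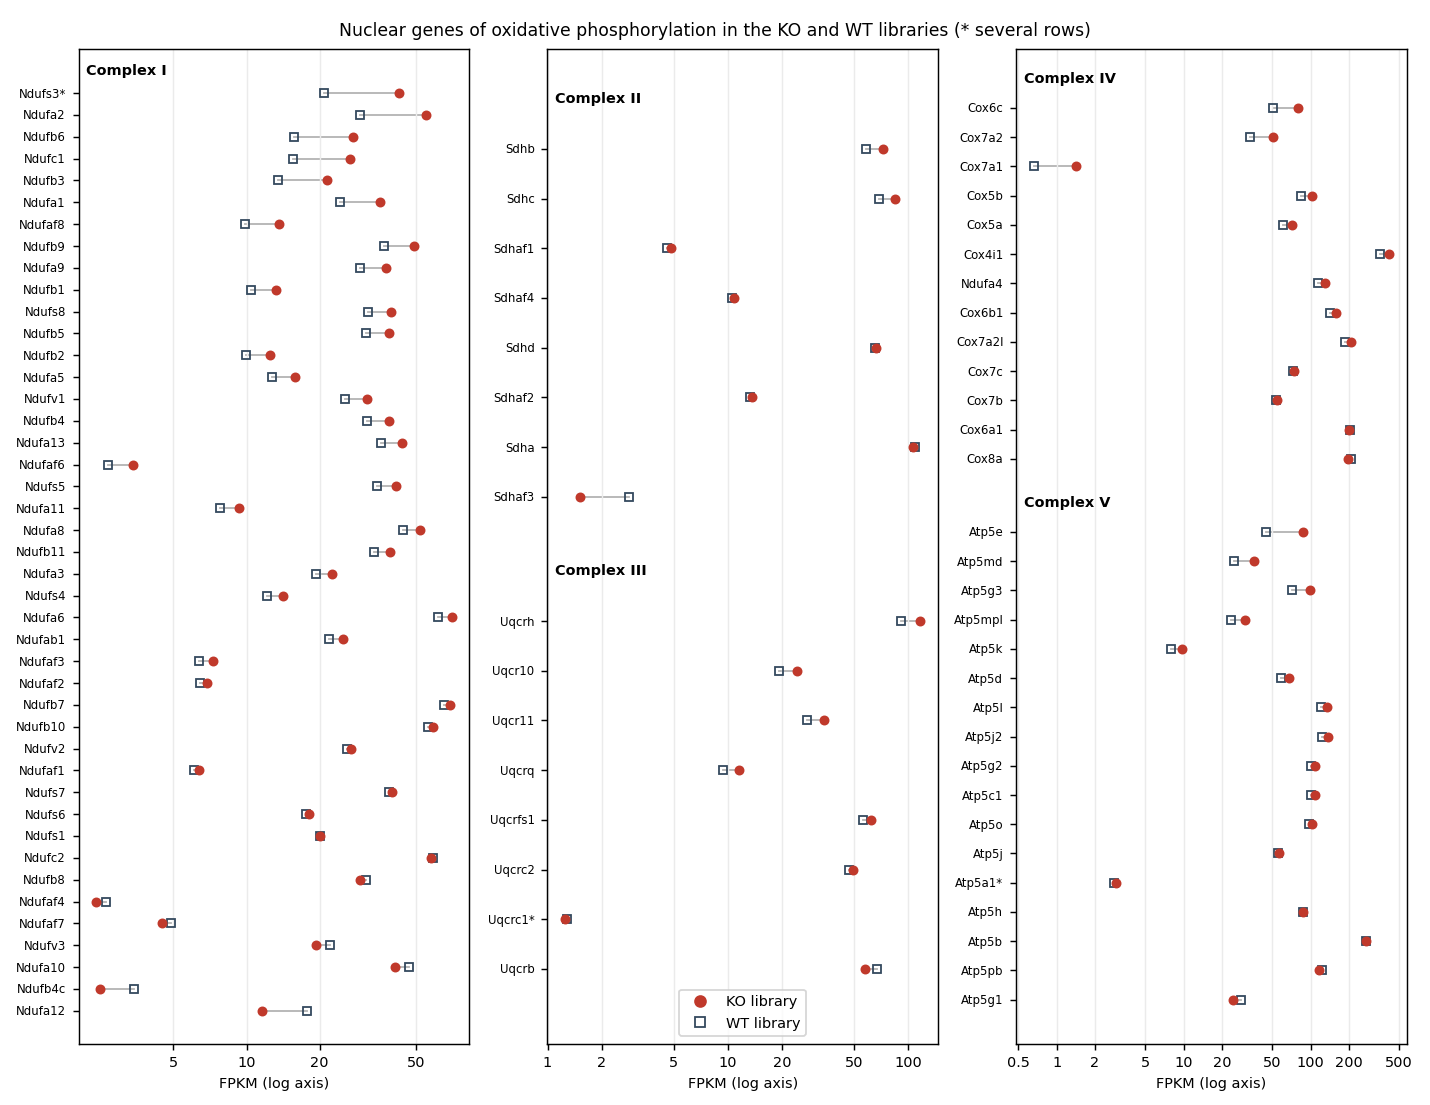
Level of 89 of the 90 members in the KO library (filled circles) and the WT library (open squares), in FPKM on a log axis, by complex and ordered from the highest to the lowest difference (KO minus WT). Each point is 1 library and an asterisk marks a symbol with several rows; most circles lie to the right of their squares, as for Atp5e at 87.6 FPKM in KO, against 44.8 FPKM in WT, and a few lie to the left, as for Sdhaf3 at 1.52 FPKM in KO, against 2.83 FPKM in WT.

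Complex I, the largest of the complexes, had 43 single-row members with a median difference of 0.21, of which 34 were higher and 9 lower in KO. The median was 0.14 with the trend along exon length taken out. Its core subunits carry the flavin and the iron-sulfur clusters. Ndufv1, which binds NADH and the flavin, had 31.2 FPKM in KO and 25.3 FPKM in WT. Ndufs8, an iron-sulfur subunit next to the ubiquinone site, had 39.5 FPKM in KO and 31.7 FPKM in WT. These gave the largest differences among the single-row core subunits, 0.29 and 0.31. Other core subunits were nearly level between the libraries. Ndufv2 had 27.0 FPKM in KO and 25.9 FPKM in WT, and Ndufs7 had 39.8 FPKM in KO and 38.8 FPKM in WT. Ndufs1, the largest subunit of the peripheral arm, had 20.1 FPKM in KO and 20.0 FPKM in WT. Over the 6 single-row core genes the median was 0.05.

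The accessory subunits of complex I, which surround and stabilise the core, held both ends of the range of its single-row members. Over 30 of them the median difference was 0.23, with 24 higher and 6 lower. Their median coding length was 423 bases, against 1069.5 bases for the 6 single-row core genes, and role was not separated from length. Ndufa2, a small subunit of the NADH-binding module, had 55.1 FPKM in KO and 29.5 FPKM in WT, 1.87 times as much in KO (difference 0.88). Ndufb6 had 27.4 FPKM in KO and 15.8 FPKM in WT (difference 0.76). Ndufc1 had 26.8 FPKM in KO and 15.6 FPKM in WT (difference 0.74). Like these last genes, Ndufb3 encodes a subunit of the membrane arm, and it had 21.4 FPKM in KO and 13.4 FPKM in WT (difference 0.64). Each of these 4 genes was past 1.5-fold, and they lie on different chromosomes. In GENCODE M21 on GRCm38 (the mm10 build), Ndufb6 spans chr4:40270591-40279421, Ndufc1 spans chr3:51404677-51408988 and Ndufb3 spans chr1:58586384-58595964.

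Further accessory genes of the membrane arm were higher by less. The values of Ndufa1, on the X chromosome, were 35.3 FPKM in KO and 24.2 FPKM in WT (difference 0.53), and those of Ndufb9 were 49.0 FPKM in KO and 36.9 FPKM in WT (difference 0.40). In the module that binds ubiquinone, Ndufa9 had 37.4 FPKM in KO and 29.2 FPKM in WT (difference 0.35). Apart from these and from 6 accessory genes that were lower in KO, the accessory genes lay between Ndufs6 with 18.002 FPKM in KO and 17.6 FPKM in WT (difference 0.03) and Ndufb1 with 13.2 FPKM in KO and 10.4 FPKM in WT (difference 0.31). GENCODE M21 types the entry matched to Ndufb1 as a noncoding RNA at a bidirectional promoter, with no coding length. The median was 0.24 over the 22 genes of the membrane arm and 0.24 over the 6 single-row genes of the ubiquinone module. It was 0.04 over the 8 genes of the NADH module.

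Ndufa12, an accessory subunit of the NADH module, ran the other way. It had 11.5 FPKM in KO and 17.8 FPKM in WT, a difference of -0.59, the lowest of all structural subunits (chr10:94198720-94221443). The next lowest values within the complex, apart from Ndufb4c, were much nearer to 0. Ndufa10 had 41.0 FPKM in KO and 46.9 FPKM in WT (difference -0.19). Ndufv3 had 19.3 FPKM in KO and 22.0 FPKM in WT (difference -0.18), and Ndufb8 had 29.4 FPKM in KO and 31.0 FPKM in WT (difference -0.07). Ndufc2, the partner of Ndufc1 in the membrane arm, was level at 57.7 FPKM in KO, against 58.6 FPKM in WT. Ndufb4c had 2.49 FPKM in KO and 3.45 FPKM in WT (difference -0.35), and GENCODE M21 lists it as a processed pseudogene, although its name passed the rule. Accessory subunits of 1 module thus differed in opposite directions, with Ndufa2 and Ndufa12 both in the NADH module.

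Of the assembly factors of complex I named Ndufaf, which help to build the complex and are not part of it, 7 passed the filter with a median difference of 0.08. Ndufaf8 was the highest of them at 13.6 FPKM in KO, against 9.88 FPKM in WT (difference 0.42), followed by Ndufaf6 with 3.41 FPKM in KO and 2.70 FPKM in WT (difference 0.25). At the other end were Ndufaf7 with 4.47 FPKM in KO and 4.89 FPKM in WT, and Ndufaf4 with 2.41 FPKM in KO, against 2.63 FPKM in WT. The factors with other names were listed separately, and of the 11 that passed the filter, 5 were higher and 6 lower, with a median of -0.01. The widest differences among these were those of Tmem70, with 17.4 FPKM in KO and 15.2 FPKM in WT (difference 0.18), and of Ecsit, with 2.47 FPKM in KO and 2.89 FPKM in WT (difference -0.17).

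Complex II, the succinate dehydrogenase shared with the tricarboxylic acid cycle, is built of 4 nuclear subunits. These did not share 1 shift. Sdhb, the iron-sulfur subunit, had 72.0 FPKM in KO and 58.2 FPKM in WT (difference 0.30). Sdhc, a membrane anchor, had 84.5 FPKM in KO and 69.0 FPKM in WT (difference 0.29). Sdha, the flavin subunit that oxidises succinate, had 106.4 FPKM in KO and 109.0 FPKM in WT (difference -0.03), and the anchor Sdhd had 66.3 FPKM in KO and 64.9 FPKM in WT (difference 0.03). The partners in each of the catalytic and anchor pairs were thus not shifted alike. The assembly factors Sdhaf1, Sdhaf2 and Sdhaf4 differed by no more than 0.07, and Sdhaf1, the highest of these, had 4.85 FPKM in KO and 4.57 FPKM in WT. Sdhaf3, a maturation factor of the iron-sulfur subunit, had 1.52 FPKM in KO, against 2.83 FPKM in WT, the lowest difference of all members at -0.60, in a gene of low level (chr6:6956004-7042979). The 8 genes of complex II had a median of 0.03, with 6 higher and 2 lower. This median was -0.02 under the rescaling without Lyz2 and Spp1 and -0.01 with the mRNA length trend taken out. Over the 4 structural subunits alone the median was 0.16, and over the 4 assembly factors it was 0.03.

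In complex III, the cytochrome bc1 complex, the small subunits gave the higher differences. Uqcrh, the hinge protein near cytochrome c1, had 116.3 FPKM in KO and 90.4 FPKM in WT (difference 0.36). Uqcr10 had 24.0 FPKM in KO and 19.2 FPKM in WT, and Uqcr11 had 34.2 FPKM in KO and 27.4 FPKM in WT, each a difference of 0.31. Uqcrq had 11.6 FPKM in KO and 9.42 FPKM in WT (difference 0.27). The ratios of these 4 genes lay between 1.23 and 1.29. The Rieske iron-sulfur protein Uqcrfs1, the catalytic subunit in the nuclear set, had 62.1 FPKM in KO and 56.1 FPKM in WT (difference 0.14). The core protein Uqcrc2 had 49.4 FPKM in KO and 46.7 FPKM in WT (difference 0.08). Uqcrb, the subunit that helps to bind ubiquinone, was the exception and was lower in KO, with 57.4 FPKM in KO and 67.0 FPKM in WT (difference -0.22). Over the 7 single-row genes of complex III the median was 0.27, with 6 higher and 1 lower, and it was 0.13 with the mRNA length trend taken out. Cyc1, which encodes cytochrome c1 and has a name outside the rule, had 35.4 FPKM in KO and 35.7 FPKM in WT.

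Complex IV, the cytochrome c oxidase, held the most abundant member. Cox4i1, the largest nuclear subunit, had 415.2 FPKM in KO and 353.4 FPKM in WT (difference 0.23). The largest difference was that of Cox6c, with 79.9 FPKM in KO and 50.2 FPKM in WT (difference 0.66, chr15:35925886-35938246), past 1.5-fold in FPKM + 1. Next came Cox7a2, with 50.6 FPKM in KO and 33.4 FPKM in WT (difference 0.58). These small transmembrane subunits surround the mitochondrially encoded core. Cox5b, the zinc-binding subunit, had 103.6 FPKM in KO and 84.4 FPKM in WT (difference 0.29), and Cox5a had 71.8 FPKM in KO and 60.2 FPKM in WT (difference 0.25). Cox6b1, on the side facing cytochrome c, had 159.3 FPKM in KO and 141.7 FPKM in WT (difference 0.17). Ndufa4, first assigned to complex I and since placed in complex IV, had 130.8 FPKM in KO and 114.6 FPKM in WT (difference 0.19). Other small subunits did not share in this. Cox8a had 198.3 FPKM in KO and 206.9 FPKM in WT (difference -0.06), and Cox6a1 had 199.5 FPKM in KO and 204.6 FPKM in WT (difference -0.04). Cox7b and Cox7c differed by 0.02 and 0.04. Over the 13 genes of complex IV the median was 0.19, with 11 higher and 2 lower, and it was 0.13 with the mRNA length trend taken out and 0.10 with no filter on low values.

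Several subunits of complex IV come as alternative forms, in which a form of muscle, lung or testis replaces the widespread one. The widespread forms carried nearly all of the RNA in both libraries. Cox4i2, known for its expression in lung, had 0.154 FPKM in KO and 0.411 FPKM in WT, far below Cox4i1. The muscle form Cox6a2 had 0.742 FPKM in KO and 0.801 FPKM in WT, and the testis form Cox6b2 had 0.543 FPKM in KO and 0.374 FPKM in WT. Cox8b, Cox8c and Cox7b2 were listed at 0 in both libraries. Cox7a1, the heart and muscle form of Cox7a2, was the sole alternative form to pass the filter, with 1.41 FPKM in KO and 0.661 FPKM in WT, and it did so through its KO value. Its ratio of 2.14 was the largest of the single-row members, and its difference on the log scale was 0.54. Cox7a2l, a related protein that joins complexes III and IV into supercomplexes, had 208.3 FPKM in KO and 185.9 FPKM in WT (difference 0.16). Ndufa4l2, the hypoxia-induced relative of Ndufa4, had 0.360 FPKM in KO and 0.321 FPKM in WT.

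Complex V, the ATP synthase, consists of a catalytic F1 head, a rotating ring of c subunits, a peripheral stalk and small membrane subunits. The highest difference among all single-row members belonged to Atp5e, the small epsilon subunit of the central stalk, which had 87.6 FPKM in KO and 44.8 FPKM in WT, 1.95 times as much in KO (difference 0.95, chr2:174461072-174464105). It ranked 137 from the top among the 10536 symbols and 5 from the top among the 184 single-row symbols with a coding length of at most 300 bases. The catalytic beta subunit in the same head was level, with Atp5b at 274.0 FPKM in KO, against 274.6 FPKM in WT. The gamma subunit gene Atp5c1 had 108.4 FPKM in KO and 101.7 FPKM in WT (difference 0.09). The delta subunit gene Atp5d had 67.5 FPKM in KO and 58.7 FPKM in WT (difference 0.20). Subunits of 1 head thus ranged from no difference to a ratio of 1.95.

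The genes of the c ring showed opposite shifts. Atp5g1, Atp5g2 and Atp5g3 encode the same mature protein with different import sequences. Atp5g3 had 98.8 FPKM in KO and 71.3 FPKM in WT (difference 0.47), and Atp5g2 had 109.3 FPKM in KO and 100.7 FPKM in WT (difference 0.12). Atp5g1 had 24.5 FPKM in KO and 28.3 FPKM in WT (difference -0.20), the lowest of complex V. Their summed level was 232.6 FPKM in KO and 200.2 FPKM in WT, so the higher level of Atp5g3 outweighed the lower one of Atp5g1. In the search for copies described below, Atp5g1 and Atp5g2 had near-identical copies without a row of their own, and Atp5g3 had none.

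All 5 small membrane subunits of the synthase were higher in KO, with a median of 0.25. Atp5md had 36.1 FPKM in KO and 24.9 FPKM in WT (difference 0.52), and Atp5mpl had 30.4 FPKM in KO and 23.8 FPKM in WT (difference 0.34). Atp5k had 9.66 FPKM in KO and 7.95 FPKM in WT (difference 0.25), Atp5l had 135.7 FPKM in KO and 120.5 FPKM in WT (difference 0.17), and Atp5j2 had 136.7 FPKM in KO and 123.5 FPKM in WT (difference 0.14). The peripheral stalk, which holds the head still, was nearly level at a median of 0.02. Atp5o had 102.4 FPKM in KO and 96.4 FPKM in WT, Atp5h had 87.5 FPKM in KO and 87.0 FPKM in WT, Atp5j had 57.0 FPKM in KO and 55.3 FPKM in WT, and Atp5pb, the b subunit, had 116.1 FPKM in KO and 122.4 FPKM in WT (difference -0.08). Over the 16 genes of complex V the median was 0.13, with 13 higher and 3 lower, and it was 0.06 with the mRNA length trend taken out and 0.07 under the rescaling without Lyz2 and Spp1.

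Read by role and not by complex, the 16 core subunits had a median difference of 0.08, with 12 higher and 4 lower. They come from complexes I, II, III and V. The 58 accessory subunits, among them all 11 structural subunits of complex IV, had a median of 0.22, with 48 higher and 10 lower. The 12 assembly factors and other non-structural genes had a median of 0.06, with 9 higher and 3 lower. Median coding length was 786 bases for the core subunits and 357 bases for the accessory ones. Role, complex and length thus cannot be told apart here. The order of levels between complexes was alike in the libraries. The median level per gene, on the length-scaled FPKM scale, was highest in complex IV with 103.6 FPKM in KO and 84.4 FPKM in WT. It was 93.2 FPKM in KO and 79.1 FPKM in WT for complex V, and 27.0 FPKM in KO and 22.0 FPKM in WT for complex I. The value for complex I includes its low Ndufaf genes. Its 36 structural subunits alone had a median of 33.3 FPKM in KO and 27.5 FPKM in WT.

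Many of the members with the highest differences have short coding sequences. Coding lengths were the longest annotated per gene in GENCODE M21, known for all single-row members but Ndufb1 and Ndufb4c, that is for 85 of 87. Of the 16 members higher in KO by at least 25%, 11 have a coding length of at most 300 bases, and 45 of all 184 tested single-row symbols of that length were higher by as much. Over the 85 the difference ran against coding length with a Spearman rho of -0.41, and over 9853 tested symbols with a length the rho was -0.19. Genes are not independent replicates, and all points share the same libraries, so these are descriptions without a p. In length classes chosen after the values were seen, the 21 members of at most 300 bases had a median of 0.34, with 20 higher and 1 lower. The 44 members of over 300 to 600 bases had a median of 0.18, with 36 higher and 8 lower. The 20 longer members had a median of 0.06, with 13 higher and 7 lower. Over all tested single-row symbols, members included, the same classes had medians of 0.11 (184 symbols), 0.05 (1059 symbols) and -0.02 (8275 symbols). Short genes were thus more often higher in KO across the whole table, and in each class the median of the members lay above that of all symbols. The members were also the shorter genes within each class. Their median mRNA length was 452 bases, against 657 bases for all symbols, in the shortest class. It was 709 bases, against 1107 bases, in the middle class and 1593 bases, against 2956 bases, in the longest. The classes thus did not match the members to all symbols by length. Against their mean level the differences of the 87 members gave a rho of -0.06.

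**Figure D2:**
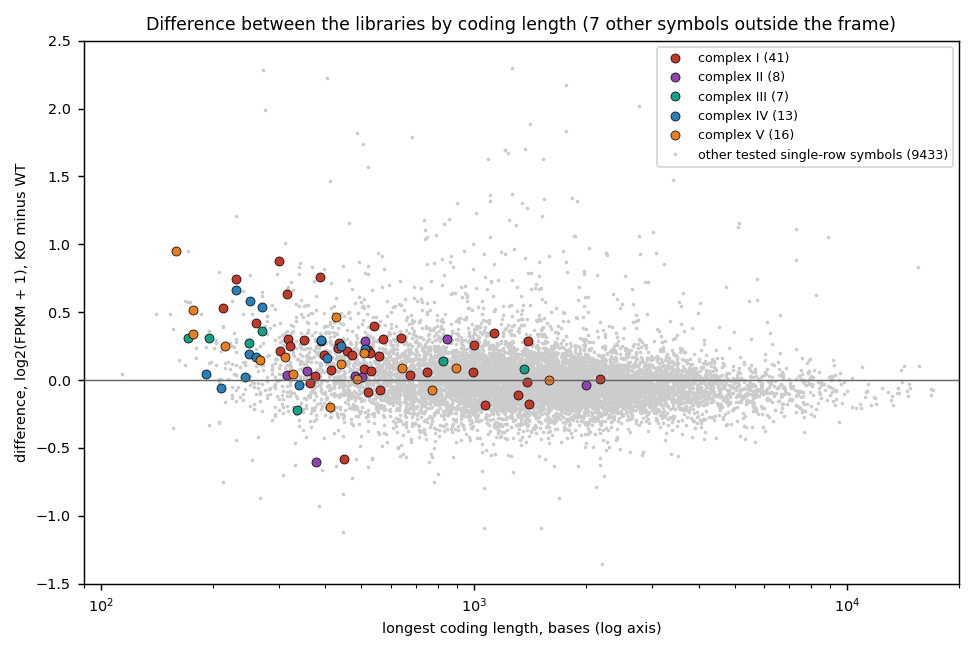
Difference between the libraries, log2(FPKM + 1), KO minus WT, against the longest coding length of each gene in bases on a log axis. Coloured circles are the 85 single-row members with a known length, by complex, and grey dots are 9433 other tested single-row symbols (7 lie outside the frame); the members of at most 300 bases have a median of 0.34 and those over 600 bases a median of 0.06.

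Ribosomal protein genes served for comparison. The 80 cytosolic ones, which are as short as the members (median coding length 456 bases, against 426 bases) and more abundant, had a median difference of 0.11, with 56 higher and 24 lower in KO, and 0.03 with the mRNA length trend taken out. Their upper quartile was 0.37, against 0.30 for the members, and 24 of 80 (30.0%) were higher by at least 25%, against 16 of 87 members (18.4%). The members thus had the higher median and the cytosolic ribosomal genes the larger share of wide differences. The 72 genes of the mitochondrial ribosome, at a median level of 14.4 FPKM in KO and 13.9 FPKM in WT, had a median difference of 0.02, with 38 higher and 34 lower. No test of these differences can be had from 1 library per genotype.

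Genes that work beside the respiratory complexes did not all share the direction of the subunits. In the tricarboxylic acid cycle, which feeds electrons into the chain, 4 of 13 genes were higher and 9 lower in KO, with a median of -0.07. Fh1 (fumarase) had 24.0 FPKM in KO and 28.2 FPKM in WT (difference -0.22). Idh3g, a subunit of isocitrate dehydrogenase, had 52.0 FPKM in KO and 57.7 FPKM in WT (difference -0.15), while Dld, the dehydrogenase subunit shared with pyruvate dehydrogenase, had 34.6 FPKM in KO and 29.2 FPKM in WT (difference 0.24). In the pyruvate dehydrogenase list, 5 of 9 single-row genes were higher and 4 lower, with a median of 0.04. Its ends were the inhibitory kinase Pdk1, at 9.51 FPKM in KO, against 11.6 FPKM in WT (difference -0.26), and the mitochondrial pyruvate carrier Mpc1, at 14.2 FPKM in KO, against 11.8 FPKM in WT (difference 0.24). Mpc2, the partner of Mpc1, had 25.5 FPKM in KO and 22.0 FPKM in WT (difference 0.20). None of the genes of these lists reached the margin of 25%, beside 7.55% of all tested symbols that were higher and 4.3% that were lower.

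Cytochrome c and the carriers of the inner and outer membrane were higher in KO in all 7 genes of the list, with a median of 0.14. The ADP/ATP carrier Slc25a5 had 257.1 FPKM in KO and 220.2 FPKM in WT (difference 0.22), and the related Slc25a4 had 76.1 FPKM in KO and 65.7 FPKM in WT (difference 0.21). Vdac3, a channel of the outer membrane, had 52.2 FPKM in KO and 45.2 FPKM in WT (difference 0.20). Cycs, the cytochrome c gene itself, had 14.0 FPKM in KO and 13.7 FPKM in WT. Assembly factors of complex IV were mostly higher too, 16 of the 19 that passed the filter, with a median of 0.14. Cox14 had 34.1 FPKM in KO and 22.5 FPKM in WT (difference 0.58), Cox18 had 4.31 FPKM in KO and 3.10 FPKM in WT (difference 0.37), and Surf1, whose loss in people causes complex IV deficiency, had 31.4 FPKM in KO and 24.98 FPKM in WT (difference 0.32). The 7 genes of the complex III assembly list, which also counts the cytochrome c1 gene Cyc1, had a median of 0.01, with 4 higher. The highest was Uqcc2 with 20.3 FPKM in KO and 16.2 FPKM in WT (difference 0.31). Of the 4 genes of complex V assembly and inhibition, 1 was higher and 3 were lower. Fmc1 had 3.98 FPKM in KO and 3.19 FPKM in WT (difference 0.25), Atpaf1 had 4.56 FPKM in KO and 5.50 FPKM in WT (difference -0.23), and the inhibitor Atpif1 had 55.3 FPKM in KO and 56.8 FPKM in WT.

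In the machinery that imports nuclear-encoded subunits, 10 of 17 genes were higher and 7 lower, with a median of 0.12, and 5 were higher by at least 25%, beside 7.55% of all tested symbols. The median of the list was 0.07 with the mRNA length trend taken out. Tomm7, a small subunit of the outer membrane translocase, had 12.8 FPKM in KO and 8.21 FPKM in WT (difference 0.58), and the small chaperone Timm13 had 27.7 FPKM in KO and 18.6 FPKM in WT (difference 0.55). Timm17a, a subunit of the inner membrane translocase, had 20.0 FPKM in KO and 14.0 FPKM in WT (difference 0.49). Regulators of mitochondrial transcription went the other way by median, with 5 of 13 higher, 8 lower and a median of -0.08. The highest was Mterf1a, a gene of low level with 1.95 FPKM in KO and 1.052 FPKM in WT (difference 0.52). Nrf1, the factor whose letters were searched for above, had 6.84 FPKM in KO and 8.08 FPKM in WT (difference -0.21). Tfam, which packs mitochondrial DNA and acts in its transcription, had 5.89 FPKM in KO and 4.94 FPKM in WT (difference 0.22). Tfb2m, a factor of transcription initiation, had 6.03 FPKM in KO and 7.56 FPKM in WT (difference -0.28). Among 7 mitochondrial antioxidant genes 2 were higher and 5 lower, with a median of -0.04. Gsr, glutathione reductase, had 17.8 FPKM in KO and 22.2 FPKM in WT (difference -0.31), and Prdx5, a peroxiredoxin, had 107.1 FPKM in KO and 93.2 FPKM in WT (difference 0.20). Of the mitochondrially encoded genes listed, the ribosomal RNAs had rows. The level of mt-Rnr1 was 205.6 FPKM in KO and 191.6 FPKM in WT, and that of mt-Rnr2 was 190.4 FPKM in KO, against 202.1 FPKM in WT. The mitochondrially encoded subunits were not analysed here, so the nuclear set cannot be set beside its partners.

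**Figure D3:**
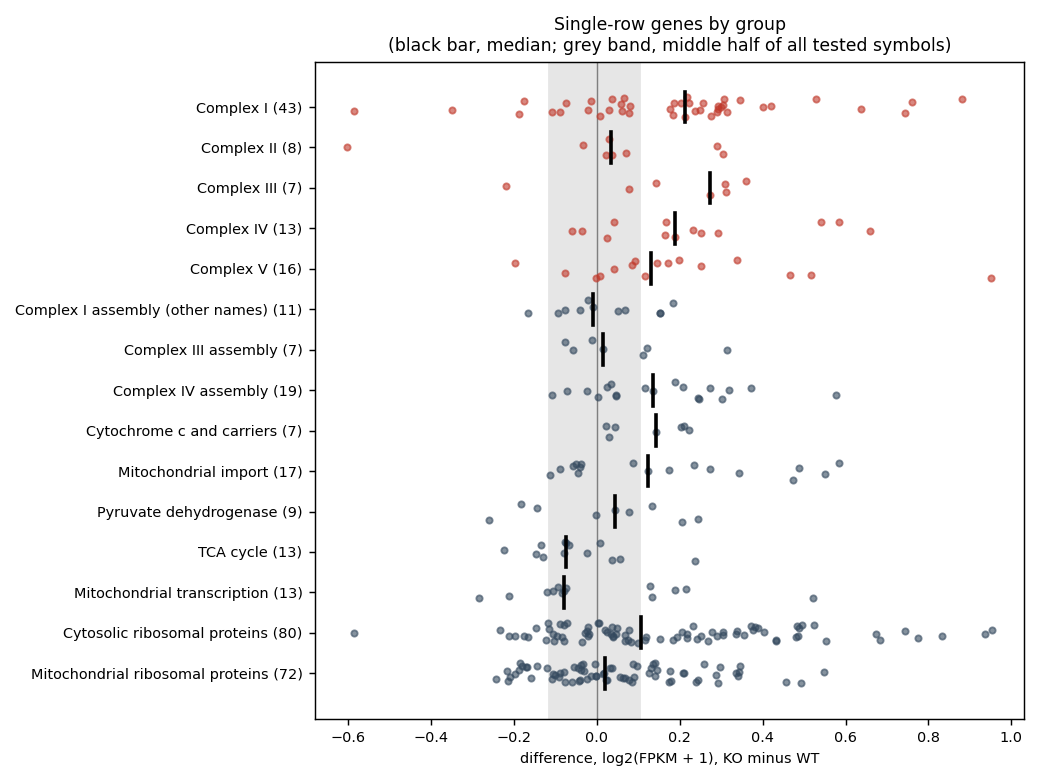
Difference between the libraries, log2(FPKM + 1), KO minus WT, for each single-row gene of the 5 complexes (red) and of lists of related genes (dark blue), with the number of genes in brackets. Black bars are medians and the grey band runs from the lower to the upper quartile of all 10536 tested symbols, -0.12 to 0.10; the medians of complexes I, III, IV and V lie right of the band, at 0.21, 0.27, 0.19 and 0.13, and that of complex II lies within it at 0.03. The 8 genes of complex II include 4 assembly factors, and its 4 structural subunits alone have a median of 0.16, also right of the band. With the mRNA length trend taken out, the median of complex V is 0.06.

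Members with and without the motif letters in their promoters had similar median differences. RefSeq promoters were found for 74 of the 87 single-row members. The NRF1 letters stood in 8 of them (10.8%), beside 4.504% of the 8348 tested symbols with a promoter and 1.95% of all 27025 genes of the table. The ETS letters stood in 21 (28.4%), beside 22.5% of tested symbols and 9.93% of all genes. The YY1 letters stood in 11 (14.9%), beside 6.06% and 3.19%. The median difference was 0.20 over the members with the NRF1 letters and 0.17 over those without. It was 0.17 with and 0.18 without the ETS letters, and 0.14 with and 0.18 without the YY1 letters. A match is a description of the letters, and binding was not measured.

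Symbols with several rows are uncertain, since reads may be shared between rows. Ndufs3, a core subunit of complex I, had 1 row at 42.5 FPKM in KO, against 20.8 FPKM in WT, and another row listed at 0 in both libraries. The first row gave the largest difference of all 90 members, 2.05-fold or 0.998 on the log scale. Ndufs3 also has a near-identical annotated copy without a row of its own, from the search described below. Atp5a1, the catalytic alpha subunit of the ATP synthase, had 2.93 FPKM in KO and 2.85 FPKM in WT in its higher row, while its partner Atp5b stood at 274.0 FPKM in KO. Uqcrc1, the core protein that pairs with Uqcrc2, had 1.251 FPKM in KO and 1.288 FPKM in WT. Both stood far below the genes whose products they pair with, in both libraries. Ndufa7 had 4 rows, the highest at 0.468 FPKM in KO, against 0.0715 FPKM in WT, and fell below the threshold.

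Reads can also be shared with copies and neighbours of a gene. Of 88 members searched among GENCODE M21 transcripts, 14 had at least 1 annotated copy with 95% identity or more over at least 50% of the mRNA, 28 copies in all, and no copy had a row of its own in the table. Ndufa12, Uqcrb, Atp5md, Atp5g1, Atp5g2 and Ndufs3 were among these 14. The 13 single-row members with a copy had a median difference of 0.09, and the 74 others had a median of 0.19. Exons of 27 single-row members overlap those of another annotated gene with a row, mostly on the opposite strand, and whether the counting used strand is not given in the sources used here. Over these 27 the median was 0.20, and over the 60 others it was 0.18. Among the members past 1.5-fold, the exons of Ndufb6 overlap Smim27, which had 0.520 FPKM in KO and 0.464 FPKM in WT. Those of Ndufa2 overlap Tmco6, which had 5.85 FPKM in KO and 4.47 FPKM in WT, and those of Cox6c overlap Vps13b, which had 10.3 FPKM in KO and 11.7 FPKM in WT.

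Near the threshold, the members just inside were Cox7a1 and the row of Uqcrc1, with means of 1.04 and 1.27 FPKM. Just outside were the complex I assembly factor Ndufaf5, with 0.916 FPKM in KO and 0.975 FPKM in WT, Ndufb4b, with 1.16 FPKM in KO and 0.654 FPKM in WT, and Cox6a2. The other symbols below the threshold were Cox6b2, Ndufa4l2, Cox4i2 and Ndufa7, given above, Ndufa11b, which was listed at 0 in KO and had 0.167 FPKM in WT, and the 3 forms listed at 0 in both libraries.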

How the data were processed

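The deposited table holds FPKM per gene symbol, made by the authors. RSEM, DESeq2 and mm10 are listed in the submitters' processing notes without their roles. Aligner and annotation: not given in the sources used here. Of its value columns, 2 carry the titles KO and WT, and the other 2 match no sample and were not used. The table has 42396 rows. For each symbol the row of highest mean was taken.

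Differences are log2(FPKM + 1), KO minus WT, over symbols at a mean of at least 1 FPKM. With 1 library per genotype there is no test, and called means past a margin of 25%, 1.5-fold or 2-fold on the FPKM + 1 scale. Members, lists and the rule for named genes were chosen with earlier results of these data known. The rule named, per complex, the 4 highest and 2 lowest single-row members, core subunits, members past 1.5-fold, repeat rows, alternative isoforms, up to 3 genes per list and members within 0.5 FPKM of the threshold. Others were named after their values were seen.

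The WT to KO depth ratio came from 2833 symbols whose values sum to under 0.3 FPKM, of which 78.8% turned into whole-number ratios (up to 10, within 0.05%). A ratio off by 5% gave 10.1%. No depth-based interval is given. All 90 members were matched to GENCODE M21 (GRCm38) for coordinates and lengths, and promoters came from RefSeq (GRCm38.p6). Length trends were removed by lowess (fraction 0.3, statsmodels 0.14.6). Copies were searched with BLAST 2.17.0. Python 3.11.15, pandas 2.3.3, numpy 2.4.6, scipy 1.17.1 and matplotlib 3.10.9 were used. The counting step was tested on simulated data. Alternatives covered pseudocounts, scalings, filters, repeat rows, structural subunits only and length trends. The values of 1 member are not reported here.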

Additional observations from a re-analysis of the deposited data

How the results depend on the processing

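No paired analysis was possible because each genotype has 1 library and the labels give no replicate numbers, and for the same reason no replicate could be left out. Over 14 alternatives the median difference of the members ranged from 0.09 to 0.20 and stayed above 0, and 56 to 73 members were higher in KO. By a margin of 25% in FPKM + 1, 11 to 22 members were higher and 1 to 4 lower. The count of members lower by that margin, 3 as reported, was 1 with a pseudocount of 5 FPKM and 1 with a mean of at least 5 FPKM, since Sdhaf3 and Ndufb4c have low levels. The median of complex II ranged from -0.02 to 0.16, so its sign was not stable. Those of the other complexes kept their sign, from 0.14 to 0.23 for complex I, 0.13 to 0.30 for complex III, 0.10 to 0.21 for complex IV and 0.06 to 0.14 for complex V. Of 1225 pairs of a member and an alternative, none changed sign among called members, and 1192 kept the same call by the margin of 25%. Members that were not called could change sign, as Atp5g2 did, from 0.12 to -0.02 with the mRNA length trend taken out. Among the related lists, the median of the mitochondrial transcription regulators was -0.13 and that of the mitochondrial ribosome -0.03 under the rescaling without Lyz2 and Spp1. The length trend along mRNA, that rescaling and the omission of members with copies were chosen after seeing the data. Precision is limited by the single library per genotype, and depth is known only as a ratio.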
